A study of Mus musculus with 10 samples.

Results

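The RNA-binding protein Qki-5, a nuclear product of the Qk gene, was mapped on chromatin in WT cells at 7539 peaks, and 306 of these (4.06%) shared at least 1 bp with a peak that the same antibody gave in Qk-/- cells. These 306 peaks, the persisting peaks below, are described here and set against the other 7233 WT Qki-5 peaks. They were chosen by their overlap with the Qk-/- Qki-5 list, so their fold enrichment, rank, width and summit positions in the Qk-/- and WT Qki-5 lists are given as descriptions without a test. The Qk-/- list held 427 peaks, of which 335 (78.5%) overlapped a WT peak and 92 did not. The Qki-5 and Srebp2 lists used here are shorter than the peak numbers stated in the study, so all totals and shares refer to these lists only.

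The cells were oligodendrocytes differentiated in culture, in medium with the thyroid hormone triiodothyronine, from neural stem cells of an FvB/C57BL6 hybrid background. According to the methods, Qk-/- cells carried the tamoxifen-inducible Nestin-CreERT2 transgene and a floxed Qk gene that was deleted in culture with hydroxytamoxifen, whereas the WT cells are labelled wild type only. Chromatin of Qk-/- and WT cells was precipitated with a home-made antibody against Qki-5, with an antibody against RNA polymerase II (Pol II) at passage 7 and with one against Srebp2 at passage 8. Each antibody and genotype had 1 library, and the lists hold no read totals. Differences between genotypes therefore have no replicate check, the depth is unknown, and the 95% exact Clopper-Pearson intervals given with shares cover counting error over peaks only.

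Fold enrichment is how many times the ChIP pileup at a summit exceeded the background that MACS2 derived from the input, and it was compared only within a list. The label of the cells was compared with Pol II peaks at marker promoters, within 2 kb of a transcriptional start site (TSS). Pol II peaks lay at the promoters of 2 of 17 myelin and mature oligodendrocyte genes in Qk-/- cells and at 2 in WT cells. For oligodendrocyte precursor genes the counts were 4 of 10 in Qk-/- and 7 in WT cells, and for neural stem cell genes they were 9 of 10 in Qk-/- and 10 in WT cells. Astrocyte genes gave 8 of 10 in each genotype, neuronal genes 1 of 11 in Qk-/- and 4 in WT cells, and microglial genes 1 of 9 in each. By this measure markers of mature oligodendrocytes were mostly without Pol II. The Qk promoter had a Pol II peak in both genotypes and a Qki-5 peak in WT cells alone. A promoter peak does not show whether the floxed exons were lost.

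Qki proteins belong to the STAR family and bind RNA through a KH-type domain. Qki-5 stays in the nucleus, where it acts in splicing, while the other major isoforms are found partly or wholly in the cytoplasm. A ChIP-seq peak marks DNA recovered with an antibody more often than in the input, whether the protein touches DNA directly or through other molecules. Peaks obtained in cells that fully lack the target can serve as a measure of an antibody's background. Whether any Qki-5 remained in the Qk-/- cells was not tested here. Pol II transcribes protein-coding genes and most small nuclear RNA (snRNA) genes, and Srebp2 is the transcription factor that drives cholesterol synthesis.

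A total of 3 kinds of region made up the persisting peaks, and the division was chosen after the values were seen. A Pol II peak of either genotype overlapped 137 peaks (Pol II-bound). Of the 169 without Pol II, 44 had repeat sequence, soft-masked in the reference, over at least 50% of the 201 bp around the WT summit (repeat peaks), and 125 did not (Pol II-free, unmasked). Of the 44 repeat peaks, 31 carried a shared stretch of DNA. The 20-base stretch present in the most summit windows was the following, with the core in capitals and read in the direction used below.
core: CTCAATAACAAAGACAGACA

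This core stood without a mismatch in 13 persisting peaks and with at most 4 mismatches on either strand in 32 of the 304 that have sequence (10.5%, 95% interval 7.31 to 14.5). Among the other WT Qki-5 peaks, 9 of 7229 windows held it (0.124%, 0.0569 to 0.236). The core was picked as the commonest stretch of the persisting windows, so its share there is raised by the choice. The interval does not allow for that, and the contrast with the other peaks is a description only. The exact core had 59 copies in the reference chromosomes. The 6 strongest of these peaks by Qk-/- fold enrichment are shown with 30 bases on each side, because the likeness extended beyond the core. Sequences are from RefSeq GRCm38.p6, which is the mm10 assembly of the peak lists. Each is named by the gene with the nearest TSS and has the core or its closest match in capitals.
Gm36983, chr3:23018110-23018189, minus strand: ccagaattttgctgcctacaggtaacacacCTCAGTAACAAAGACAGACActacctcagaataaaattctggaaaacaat
C030037F17Rik, chr8:14594997-14595076, minus strand: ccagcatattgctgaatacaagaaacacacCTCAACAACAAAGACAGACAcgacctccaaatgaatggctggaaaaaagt
Gm12582, chr3:37075707-37075786, minus strand: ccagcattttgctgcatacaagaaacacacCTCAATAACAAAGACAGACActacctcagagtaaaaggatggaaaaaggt
Panx2, chr15:89048771-89048850, plus strand: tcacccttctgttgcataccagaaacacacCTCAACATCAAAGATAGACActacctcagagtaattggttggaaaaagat
Gm23750, chr3:114711938-114712017, minus strand: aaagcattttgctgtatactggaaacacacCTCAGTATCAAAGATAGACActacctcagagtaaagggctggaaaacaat
Gm9129, chr10:57397482-57397561, minus strand: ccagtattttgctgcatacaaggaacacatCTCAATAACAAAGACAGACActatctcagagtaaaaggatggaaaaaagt

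The core was in 1 of the 125 unmasked Pol II-free windows and in none of the Pol II-bound ones, which were richer in G and C. For the 2 strongest Pol II-bound and the 2 strongest Pol II-free unmasked peaks by WT fold enrichment, 101 bases around the summit are given on the plus strand. Capitals mark matches, on either strand, to a searched motif. These were the GC box GGGCGG and the RFX half-site GTTGCC at Kmt2a, whose neighbouring matches run together, the CCAAT box at Mt1 and the GC box at Igf2bp3. The Tlx2 window matched none of the 11 motifs searched.
Kmt2a, chr9:44881453-44881553: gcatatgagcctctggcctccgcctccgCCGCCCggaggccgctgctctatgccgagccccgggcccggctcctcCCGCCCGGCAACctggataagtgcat
Mt1, chr8:94180938-94181038: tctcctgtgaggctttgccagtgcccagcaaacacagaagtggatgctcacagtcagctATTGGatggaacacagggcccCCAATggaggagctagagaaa
Igf2bp3, chr6:49218525-49218625: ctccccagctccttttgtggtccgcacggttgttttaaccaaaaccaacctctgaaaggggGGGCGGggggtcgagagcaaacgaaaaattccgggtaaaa
Tlx2, chr6:83070686-83070786: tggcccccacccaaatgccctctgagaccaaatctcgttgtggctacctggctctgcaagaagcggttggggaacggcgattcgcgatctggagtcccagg

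Across the persisting peaks, the Qk-/- fold enrichment ran from 1.57 to 28.8 with a median of 7.27, and the WT fold enrichment from 1.67 to 48.1 with a median of 8.05. The other WT peaks had a median WT fold enrichment of 5.31. When the WT list was split by fold enrichment into 10 bins of nearly equal size, 160 of 754 peaks in the strongest bin persisted (21.2%), against 8 to 37 in each of the next 8 bins and 20 in the weakest (2.65%). Persisting peaks were thus concentrated among strong WT peaks, with a smaller group at the weak end. The strongest Qk-/- peak in each region had its summit a median of 64 bp from the WT summit, and in 124 of the 306 regions this distance was at most 50 bp. A persisting peak overlapped 1 Qk-/- peak in most cases, 21 overlapped at least 2, and the most in 1 peak was 5.

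**Figure D1:**
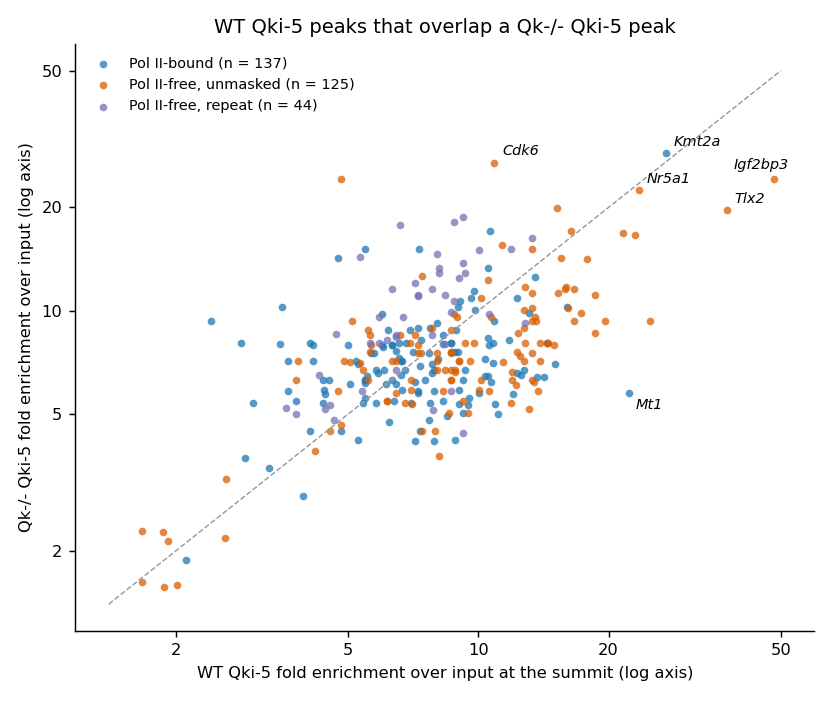
Qk-/- Qki-5 fold enrichment (vertical, log axis) against WT Qki-5 fold enrichment (horizontal, log axis) for the 306 persisting peaks, 1 point a peak, colored by kind of region. The dashed line marks equal values, which have no fixed meaning between libraries. Most of the 44 repeat peaks lie above the line, and the 7 chromosome 17 peaks lie near 2-fold in both lists.

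The smallest overlaps among the persisting peaks were 10 bp at a peak 5143 bp from the TSS of Alx4, 17 bp at Slc39a3, 18 bp near Hoxa4 and 24 bp near Cdk6. Just outside the rule, the WT peaks at Dtnb, Tbx18, Lmx1b and Hoxa7 lay 42, 61, 85 and 97 bp from a Qk-/- peak. In all, 64 of the other WT peaks lay within 1000 bp of a Qk-/- peak. Several genes of the same kind thus stood on both sides of the threshold.

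The overlap with Pol II was measured in separate libraries and was not used by the rule. A Qk-/- Pol II peak overlapped 123 of the 306 persisting peaks (40.2%, 34.7 to 45.9) and 55.6% (54.4 to 56.7) of the other WT Qki-5 peaks, against 55.0% of all. A WT Pol II peak overlapped 137 (44.8%, 39.1 to 50.5) of the persisting peaks and 80.7% (79.8 to 81.6) of the others, against 79.3% of all. The intervals did not overlap for either genotype. For WT Pol II the gap remained among strong peaks. In the top 10% by WT fold enrichment a WT Pol II peak overlapped 57 of 161 persisting peaks (35.4%, 28.0 to 43.3). Of the 609 others it overlapped 81.4% (78.1 to 84.5). For Qk-/- Pol II these shares were 32.9% (25.7 to 40.8) and 42.4% (38.4 to 46.4), with overlapping intervals. It was seen in each of 4 width classes, the smallest difference being at 300 to 500 bp, where a Pol II peak of either genotype overlapped 60.2% (49.2 to 70.5) of 88 persisting peaks and 82.6% (81.3 to 84.0) of 3134 others. In the widest class, over 1000 bp, the shares were 23.5% (15.5 to 33.1) and 68.9% (60.8 to 76.3). At promoters the WT Pol II shares were 60.1% (53.1 to 66.8) of 208 persisting peaks and 93.5% (92.8 to 94.2) of 4386 others. The Qk-/- Pol II shares there were 55.8% (48.7 to 62.6) and 83.2% (82.1 to 84.3). Outside promoters the Qk-/- Pol II shares were 7.14% (2.92 to 14.2) and 13.0% (11.8 to 14.3), with overlapping intervals. For WT Pol II they were 12.2% (6.49 to 20.4) and 61.0% (59.2 to 62.8).

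Where Pol II was present in WT cells, it was mostly listed in Qk-/- cells too. Of the 137 persisting peaks with WT Pol II, 123 (89.8%, 83.4 to 94.3) also had a Qk-/- Pol II peak, against 4015 of 5839 others (68.8%, 67.6 to 69.9). At promoters alone the shares were 92.8% (86.8 to 96.7) and 88.9% (87.9 to 89.9), with overlapping intervals. The 14 persisting peaks with Pol II in WT cells alone included Olig2, the lineage factor of oligodendrocytes and motor neurons, and Socs2, an inhibitor of cytokine signaling.

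**Figure D2:**
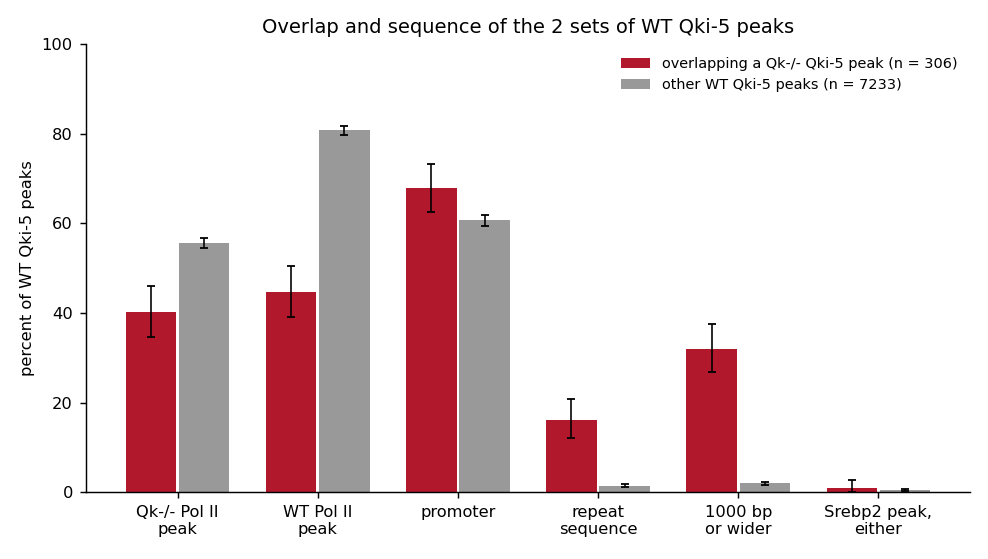
Percent of the 306 persisting peaks (red, left bar of each pair) and of the 7233 other WT Qki-5 peaks (grey) that overlapped each kind of peak or region, held repeat sequence at the summit (of 304 and 7229 with sequence) or were 1000 bp or wider; error bars are 95% Clopper-Pearson intervals. Pol II overlap was lower in the persisting peaks, at 40.2% for Qk-/- and 44.8% for WT Pol II, and repeat sequence and wide peaks were more frequent.

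Promoters were overlapped by 208 persisting peaks (68.0%, 62.4 to 73.2) and by 60.6% (59.5 to 61.8) of the others, against 60.9% of all WT Qki-5 peaks. The summit itself lay in a promoter for 62.4% (56.7 to 67.9) of the persisting peaks and 60.0% (58.8 to 61.1) of the others, with overlapping intervals. Without the repeat peaks, a split chosen after seeing the data, the summit lay in a promoter for 71.4% (65.5 to 76.8) of the persisting peaks. By width, the promoter share was 78.3% (67.9 to 86.6) of persisting and 63.6% (61.1 to 66.0) of other peaks of 500 to 1000 bp. Up to 300 bp it was 40.5% (24.8 to 57.9) and 57.4% (55.4 to 59.4). At 300 to 500 bp it was 65.9% (55.0 to 75.7) and 61.6% (59.9 to 63.4). Over 1000 bp it was 71.4% (61.4 to 80.1) and 64.2% (55.9 to 71.9). The intervals overlapped in every class except 500 to 1000 bp. Outside promoters the 98 remaining summits were intergenic in 63 cases and intronic in 26. Among the other WT peaks introns were more frequent, with 20.4% (19.4 to 21.3) of peaks against 8.50% (5.63 to 12.2) of the persisting ones. A total of 257 genes, 177 of them protein-coding, had a persisting peak at a promoter.

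The Srebp2 lists used here were short, with 28 peaks in Qk-/- and 77 in WT cells, which limits how many overlaps they can give. A Srebp2 peak of either genotype overlapped 3 of them (0.980%), and 0.504% of all WT Qki-5 peaks were so overlapped. At the promoter of Atf4, which encodes a factor of the integrated stress response, Srebp2 fold enrichment was 5.10 in Qk-/- and 22.4 in WT cells, and Qki-5 fold enrichment was 5.47 in Qk-/- and 6.38 in WT cells. The remaining pair of regions had Srebp2 in WT cells alone, at 1.93-fold at Gm23935, annotated as a microRNA, and at 2.38-fold on an unplaced scaffold that has no gene annotation here. Of 22 genes of cholesterol biosynthesis, 5 had a WT Qki-5 peak at the promoter and none had a persisting one, and the same held for 6 bound genes that take up, sense or transport sterols. Over all annotated genes with a WT Qki-5 peak at the promoter the share with a persisting one was 4.54%, so counts of 0 among 5 and 6 genes do not set these groups apart.

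The Pol II-bound persisting peaks lay close to start sites, at a median of 123 bp from the nearest TSS, and 125 of 137 overlapped a promoter. Their median width was 522 bp and the GC content around the summit had a median of 67.7%. The strongest (chr9:44881033-44881767) was at Kmt2a, which encodes a histone H3 lysine methyltransferase. It had the highest fold enrichment of the Qk-/- list, 28.8, and ranked 3 in the WT list at 27.2. Pol II fold enrichment there was 15.1 in Qk-/- and 26.5 in WT cells. Of 21 genes in the list of histone methyltransferases and chromatin regulators with a WT Qki-5 peak at the promoter, only Kmt2a had a persisting one (4.76%), close to the 4.54% over all annotated genes with such a WT peak.

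Lamp1, Pcbp2 and Lrp6 were among the other strong Pol II-bound peaks. Qki-5 fold enrichment at Lamp1, a lysosomal membrane protein, was 10.3 in Qk-/- and 15.99 in WT cells. At Pcbp2, a poly(C)-binding RNA-binding protein, it was 6.41 in Qk-/- and 14.2 in WT cells. Lrp6, a Wnt co-receptor, had 6.41 in Qk-/- and 13.7 in WT cells. All 3 had Pol II peaks in both genotypes.

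Further Pol II-bound peaks lay at genes of various functions. Rpl32, a ribosomal protein, had 8.03 in Qk-/- and 10.8 in WT cells, and Snrpd1, a core protein of spliceosomal particles, had 7.96 in Qk-/- and 10.6 in WT cells. Adgrl1, an adhesion G protein-coupled receptor, ranked higher in the Qk-/- list than these, with 12.5 in Qk-/- and 13.5 in WT cells. Over all Pol II-bound persisting peaks the Pol II fold enrichment had a median of 11.996 in the 123 with a Qk-/- peak and 19.3 in the 137 with a WT peak. The other WT Qki-5 peaks with Pol II had medians of 11.03 in Qk-/- and 15.9 in WT cells.

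Prdm15, a zinc finger protein with a PR domain, ranked 11th of 427 in the Qk-/- list at 17.1 and 160th of 7539 in the WT list at 10.6. Pou3f3, a neural POU homeobox factor, had 1 Qk-/- peak, ranked 18th at 15.1, that spanned a pair of WT peaks of 7.30 and 5.46. At Olig2 the values were 10.3 in Qk-/- and 3.53 in WT cells, with ranks of 57 of 427 and 7038 of 7539 in those lists. Olig2 was thus near the weak end of the WT list but not of the Qk-/- list.

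Mt1, a metallothionein that binds zinc and copper, was near the weak end of the Qk-/- list but not of the WT list. Its stronger persisting peak, the WT peak of rank 7 at 22.2-fold, overlapped a Qk-/- peak of 5.78-fold and rank 333. The Qk-/- peak measured 149 bp, inside a WT peak of 2614 bp. The summit window was fully soft-masked, and its 31-base words had a median of 1697 copies in the genome. A second persisting peak at the Mt1 promoter had 5.89 in Qk-/- and 9.04 in WT cells.

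Genes of small nuclear RNAs, the RNA components of the spliceosome, recurred among the Pol II-bound peaks. An annotated snRNA gene was the nearest TSS within 500 bp for 6 of 137 (4.38%, 1.62 to 9.29), and for 22 of 5845 other WT Qki-5 peaks with Pol II (0.376%, 0.236 to 0.569). Of the 6, those at Gm24950, Gm23971 and Rnu2-10 lay together at chr11:101641567-101659263. They are not independent, and the interval does not allow for this. The 6 also included Rnu11, for U11, with 4.99 in Qk-/- and 11.1 in WT cells, and Gm23804 with 6.98 in Qk-/- and 15.02 in WT cells. The 31-base words around the summit of Gm23804 had a median of 15 copies, so reads there could belong to several loci. The medians were 10 at Gm23971, 8 at Rnu2-10 and 2 at Gm22068 and Gm24950. Malat1, an abundant nuclear noncoding RNA, had 6.72 in Qk-/- and 12.8 in WT cells. It was 1 of 2 genes in the list of RNA-binding and splicing genes, of 30 with a WT peak, that had a persisting peak at the promoter, the other being Igf2bp3. This share of 6.67% was near the 4.54% over all annotated genes.

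**Figure D3:**
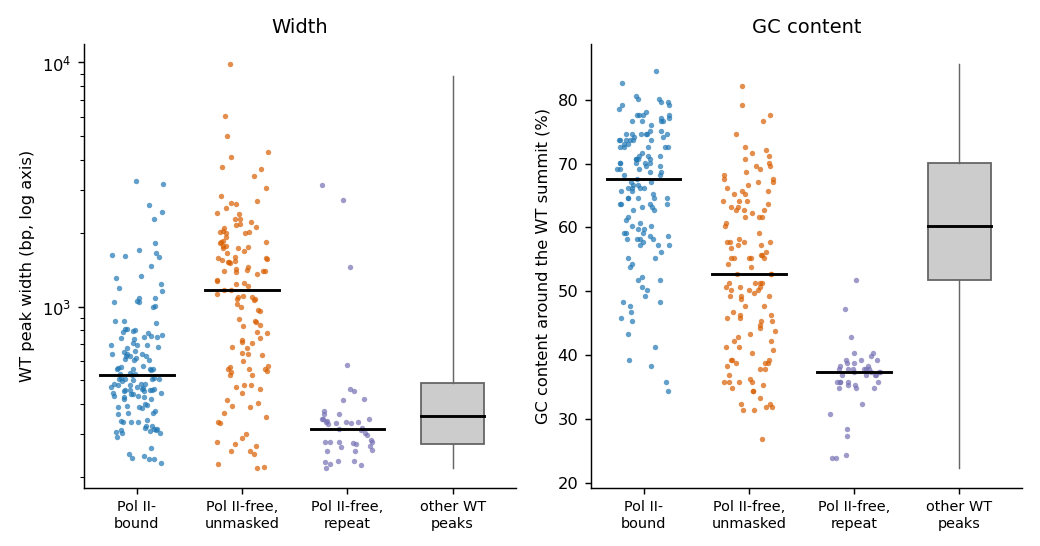
Width of the WT Qki-5 peak (left, log axis) and GC content within 100 bp of the WT summit (right) for the 3 kinds of persisting peaks, 1 point a peak with the median as a line, and for the other WT peaks as a box from the lower to the upper quartile with lines to the lowest and highest value. Unmasked Pol II-free peaks have a median width of 1173 bp, against 522 bp for Pol II-bound and 316.5 bp for repeat peaks, and repeat peaks cluster near 37.3% GC.

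The 125 unmasked Pol II-free peaks were wide, with a median of 1173 bp and 72 of at least 1000 bp. The 1388 other WT Qki-5 peaks without Pol II had a median width of 311 bp, and 46 of them reached 1000 bp. Width is a value of the list that chose the peaks, and a wider peak has more bases to be overlapped. The unmasked Pol II-free peaks overlapped a promoter in 77 cases (61.6%, 52.5 to 70.2), against 20.2% (18.2 to 22.5) of the other peaks without Pol II. Any base of a peak counts for this overlap, and no width-matched share was taken. Measured from the summit, the nearest TSS lay a median of 1756 bp away, against 12127 bp for the other peaks without Pol II. This distance also varied with width. Among peaks of at least 1000 bp, with or without Pol II, its median was 1398.5 bp for persisting and 1254 bp for other peaks.

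Genes of developmental transcription factors were frequent beside these peaks. The nearest protein-coding TSS lay within 10 kb and belonged to a homeobox gene, by its RefSeq description, for 36 of 125 (28.8%, 21.1 to 37.6), at 25 genes. Homeobox proteins bind DNA and specify position and cell identity in the embryo. Of the other peaks without Pol II, 103 of 1388 (7.42%, 6.10 to 8.93) were so placed, and of all other WT peaks 1.77% (1.48 to 2.101). Among peaks of at least 1000 bp without Pol II, the shares were 26.4% (16.7 to 38.1) of 72 persisting peaks and 28.3% (15.99 to 43.5) of 46 others. Among wide peaks the intervals thus overlapped, and the persisting peaks did not stand apart.

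Forkhead factors were nearest to 7 of the 125 (Foxa1, Foxc2, Foxd2, Foxd4, Foxi3 and Foxl2), basic helix-loop-helix factors to 8 (Neurog1, Sim1, Sim2 and Tal1), and GATA factors to 4 (Gata2, Gata4 and Gata6). Among the 1388 other peaks without Pol II the counts were 23, 8 and 4 for the same families. At widths of at least 1000 bp the counts were 7, 5 and 3 of 72 persisting peaks and 2, 0 and 0 of 46 others. From the list of 52 developmental transcription factors, which was drawn up with results of these data known, 30 genes had a WT Qki-5 peak at the promoter and 12 of these (40.0%) a persisting one. Over all annotated genes the share was 257 of 5662 (4.54%). Because results were known when the list was drawn up, this contrast is not independent support. No width-matched share was taken for it. Zic2, a zinc finger factor of the neural tube, was at Pol II-bound peaks and the peak of Lhx9, a LIM homeobox factor, was of the repeat kind, whereas the other 10 genes had unmasked Pol II-free peaks.

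Among single loci, Tlx2, a homeobox factor of the enteric nervous system, had 19.7 in Qk-/- and 37.5 in WT cells. Nr5a1 (chr2:38710549-38711757), the nuclear receptor SF-1 of steroid-producing tissue, had 22.4 in Qk-/- and 23.5 in WT cells, with ranks of 4 and 5 in those lists. Gm14205, an antisense gene next to the inhibitory transmitter transporter gene Slc32a1, had 9.36 in Qk-/- and 24.9 in WT cells. Its peak ranked 77th in the Qk-/- list and 4th in the WT list. No Pol II peak overlapped these regions in either genotype.

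Several of these peaks were assigned by the nearest TSS to a noncoding gene beside a developmental one. Foxl2os, antisense to the ovarian forkhead gene Foxl2, had 14.2 in Qk-/- and 17.9 in WT cells. Gm47071, beside the hindlimb factor gene Pitx1, had 9.82 in Qk-/- and 17.3 in WT cells, and Gm20649, beside Onecut1, had 9.36 in Qk-/- and 16.7 in WT cells. Among coding genes, Tfap2a, a neural crest factor, had 11.7 in Qk-/- and 15.98 in WT cells, Gfi1, a zinc finger repressor of blood and inner ear, had 7.96 in Qk-/- and 14.99 in WT cells, and Isl2, a motor neuron factor, had 8.03 in Qk-/- and 14.4 in WT cells. They ranked between 26 and 159 of 427 in the Qk-/- list and between 14 and 37 of 7539 in the WT list.

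Igf2bp3, an RNA-binding protein of embryonic tissue and tumors, was covered by 3 persisting peaks. The main one, 9841 bp wide with 48.1-fold enrichment in WT cells, overlapped Qk-/- peaks of 24.1, 21.9 and 6.72-fold, and the first of these also reached a 250 bp WT peak beside it. The third, 12701 bp from the TSS, had 15.5 in Qk-/- and 11.4 in WT cells. Cdk6, a cell cycle kinase, also had 3, of which the strongest (chr5:3339846-3341618) ranked 2 in the Qk-/- list at 27.0 and 138th in the WT list at 10.9. A pair of peaks 90578 and 97961 bp from Mir148a, a microRNA gene, had 16.9 and 9.36 in Qk-/- cells, against 21.6 and 19.6 in WT cells. The wider measured 6031 bp, and other wide members were at Sim1 (5003 bp) and Osr2 (4313 bp).

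Homeobox genes of the Hoxa cluster pattern the body axis. Over the cluster with Evx1 and 10 kb on either side, there were 14 Qk-/- and 34 WT Qki-5 peaks, and 11 of the WT peaks persisted. Their Qk-/- fold enrichment was 5.39 to 11.6 and their WT fold enrichment 3.80 to 18.6. No Pol II peak overlapped these 11, and Pol II peaks in the interval numbered 1 in Qk-/- and 2 in WT cells. The Hoxb, Hoxc and Hoxd clusters, taken the same way, held 0, 0 and 0 Qk-/- peaks and 2, 3 and 0 WT peaks.

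**Figure D4:**
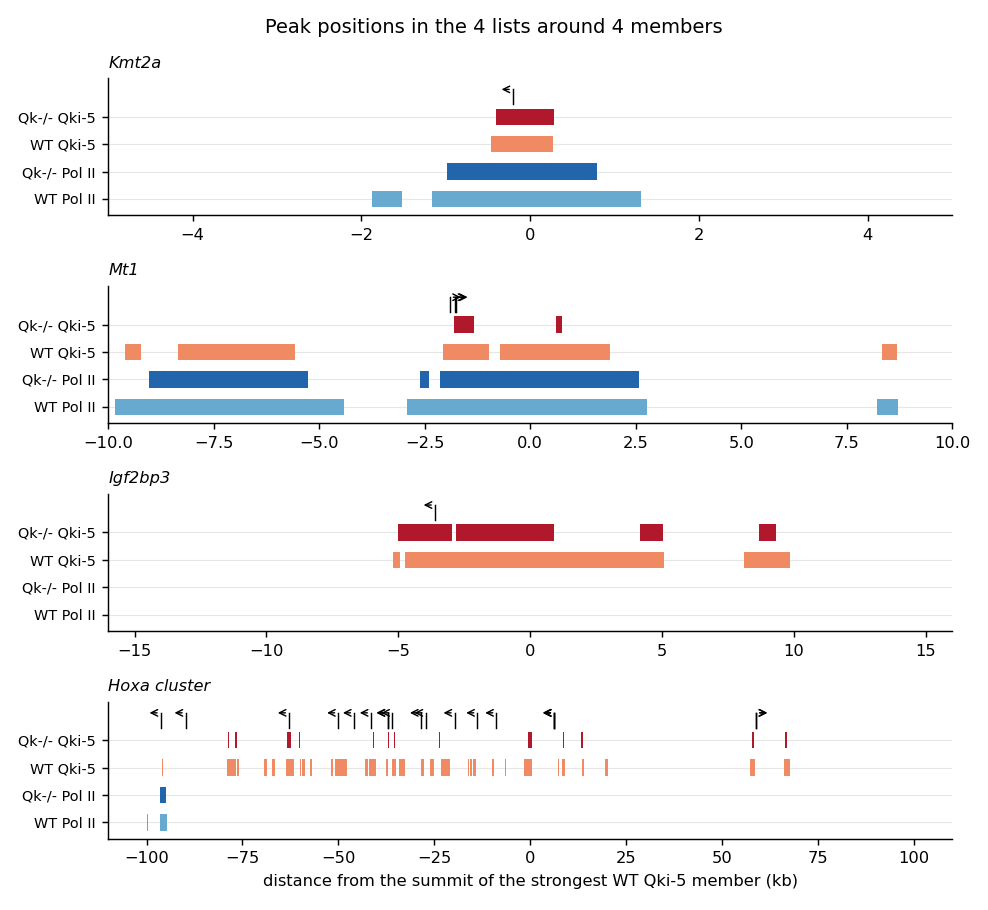
Positions of Qk-/- and WT Qki-5 and Pol II peaks (rows, Qk-/- above WT) around the strongest WT Qki-5 persisting peak at 3 genes and in the Hoxa cluster, in kb from its summit, with arrows at annotated start sites. Bars give position only. Kmt2a and Mt1 have Pol II peaks in both genotypes, Igf2bp3 has none, and the Hoxa cluster has 14 Qk-/- Qki-5 peaks and 1 Qk-/- Pol II peak.

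The 306 peaks formed 258 loci when neighbours within 10 kb were joined, of which 226 had 1 member and 10 had at least 3. Shox2 and Sox1 each had a locus of 4. Chromosome 6, which carries Hoxa, Igf2bp3 and Mir148a, had the most members, 28 of its 473 WT peaks (5.92%).

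The weakest persisting peaks were of another sort. The 7 at one locus of 5.75 kb (chr17:39843036-39848786) had Qk-/- fold enrichment of 1.57 to 2.28 and WT fold enrichment of 1.67 to 2.12, and ranked between 7532 and 7539 of 7539 in the WT list. Their −log10 q was 1.72 to 12.7 in Qk-/- and 5.51 to 14.1 in WT cells, so they were called at low ratios. The annotation places Gm26917, Gm42418, AY036118 and the ribosomal RNA gene CT010467.1 there. Gm23935 on chromosome 16 had 2.18 in Qk-/- and 2.60 in WT cells. By contrast Pfn2, an actin-binding profilin, ranked 7529th in the WT list at 2.41 and 77th in the Qk-/- list at 9.36.

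The 44 repeat peaks had a median rank of 69.5 of 427 in the Qk-/- list and 893.5 of 7539 in the WT list. As a percent of the length of each list these medians were 16.3% in Qk-/- and 11.9% in WT cells. The medians were 55.5% in Qk-/- and 14.1% in WT cells for Pol II-bound peaks, and 44.0% in Qk-/- and 4.76% in WT cells for unmasked Pol II-free peaks. The lists differ in length and the overlap chose the peaks, so these percents compare kinds of peak within a list only. The Qk-/- fold enrichment exceeded the WT value in 38 of 44 repeat peaks, against 64 of 137 Pol II-bound and 38 of 125 unmasked Pol II-free peaks. Fold enrichment is not on 1 scale in the 2 libraries, so only the contrast between the kinds of peak can be read from these counts.

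Repeat peaks were narrow, with a median of 316.5 bp, and were rich in A and T, with a median GC content of 37.3%. They lay far from start sites, at a median of 24486 bp from the nearest TSS, although 9 of 44 were intronic and 6 overlapped a promoter. Masked windows of this kind made up 49 of 304 persisting peaks (16.1%, 12.2 to 20.7), 5 of them with Pol II, against 1.52% (1.25 to 1.83) of the others. Qk-/- and WT summits lay a median of 11.5 bp apart, closer than the 58 bp of Pol II-bound and 113 bp of unmasked Pol II-free peaks. The median WT widths of these kinds ran in the same order, at 316.5, 522 and 1173 bp. A wider peak leaves more room between summits, and no width-matched comparison was made.

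The shared core shown above was found in 31 of the 44 repeat peaks and in 1 unmasked Pol II-free peak. The 32 peaks were spread over 16 chromosomes, with the core on the minus strand in 18 and on the plus strand in 14. The centre of the core lay a median of 9.5 bp from the Qk-/- summit and 7 bp from the WT summit, and within 25 bp of the summit in 26 of 32 in Qk-/- and 28 in WT cells. Their Qk-/- fold enrichment was 4.39 to 18.7 with a median of 11.1, and their WT fold enrichment 4.54 to 13.3 with a median of 8.11. The strongest, near Gm36983, had 18.7 in Qk-/- and 9.21 in WT cells.

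In the Pol II lists the core was rare, in 1 of 12825 Qk-/- and 22 of 32263 WT windows. It was in 0 of 27 Qk-/- and 0 of 76 WT Srebp2 windows. No persisting peak with the core overlapped a Pol II peak, and 4 overlapped a promoter. Individual copies could be told apart in part, since the 31-base words of these windows had a median of 1 copy in the genome and at most 33. Whether read placement among the copies moved with the listing of these peaks was not tested.

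**Figure D5:**
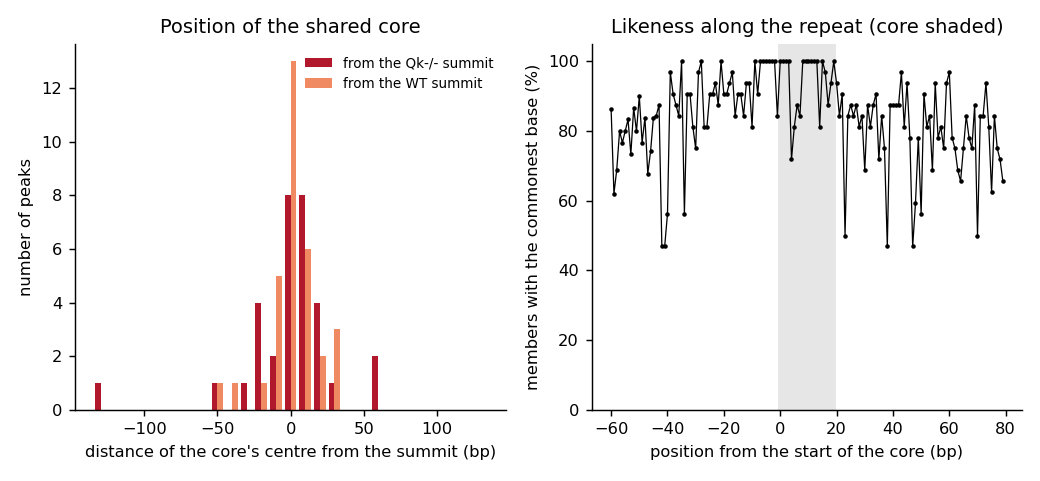
Left, distance in bp of the core's centre from the Qk-/- summit (red) and from the WT summit (orange) for the 32 persisting peaks with the core, in bins of 10 bp. Right, percent of these peaks with the commonest base at each position around the core (shaded), where at least 20 windows reach. The distances cluster at 0, with medians of 9.5 and 7 bp in size, and the likeness continues outside the core.

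A second repeated locus lay on the X chromosome. Near 4932411N23Rik, 5 persisting peaks within 28.5 kb had Qk-/- fold enrichment of 4.81 to 8.54 and WT fold enrichment of 3.59 to 7.86, with 31-base words present in medians of 11 to 20 copies. On chromosome 13, the peaks near Gm20784 and Gm21378 had the same WT fold enrichment of 13.3, and 15.1 and 11.3 in Qk-/- cells. Their windows had 2 copies each.

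Short motifs were counted within 100 bp of the WT summit, on both strands. The Qki response core ACTAA, in DNA letters, was in 11.5% (8.15 to 15.6) of persisting and 12.1% (11.3 to 12.8) of other windows. It was in 4 of 135 Pol II-bound persisting windows (2.96%, 0.813 to 7.41) and 10.4% (9.67 to 11.3) of other windows with Pol II. These intervals did not overlap. The Pol II-bound persisting windows were richer in G and C, with a median of 67.7% against 63.7%. Their peaks were also more often at promoters, at 91.2% (85.2 to 95.4) against 70.2% (69.0 to 71.4). The windows were not matched for base content or location, so whether ACTAA itself is rarer there was not tested. Without Pol II, ACTAA was in 19.2% (12.7 to 27.2) of unmasked persisting and 18.9% (16.9 to 21.1) of other windows. The NFI half-site TTGGCA was in 6.25% (3.80 to 9.59) of persisting and 16.2% (15.4 to 17.1) of other windows, and the AP-1 site TGANTCA in 0.987% (0.204 to 2.86) and 6.21% (5.67 to 6.79). Without Pol II, TTGGCA was in 8.80% (4.48 to 15.2) of unmasked persisting and 28.4% (26.05 to 30.9) of other windows. The intervals of TTGGCA and TGANTCA did not overlap between persisting and other peaks.

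Shares of other motifs differed between the kinds of region, and for the GC box also within a kind. The GC box GGGCGG was in 51.1% (42.4 to 59.8) of Pol II-bound persisting windows and 43.5% (42.3 to 44.8) of other windows with Pol II, and in 0 of 44 repeat windows. Without Pol II, it was in 20.8% (14.1 to 29.0) of unmasked persisting and 8.65% (7.23 to 10.3) of other windows, with intervals that did not overlap. The unmasked persisting peaks were also more often at promoters, at 61.6% (52.5 to 70.2) against 20.2% (18.2 to 22.5). The E-box CACGTG was in 10.4% (5.79 to 16.8) of Pol II-bound persisting windows and 7.86% (7.18 to 8.58) of other windows with Pol II. ACAAAG, the core bound by Sox factors, was in 30 of 44 repeat windows (68.2%, 52.4 to 81.4), and its letters are part of the shared core. In the repeat windows CCAAT was in 45.5% (30.4 to 61.2) and GTTGCC in 29.5% (16.8 to 45.2). Among other windows without Pol II these shares were 25.8% (23.5 to 28.2) and 12.1% (10.4 to 13.9). A match is a description of the letters only.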

How the data were processed

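Peaks were taken from 6 lists, for Qki-5, Pol II and Srebp2 in Qk-/- and WT cells. The study's methods describe trimming, alignment with Bowtie2, removal of duplicates and peak calling by MACS2, 1 ChIP library against 1 input, at a q-value of 0.05. The submitters' processing notes list the build mm10, MACS2 2.1.2 and Bowtie 1.2.2. The fold enrichment deposited by the authors is a ratio over the local background, and the −log10 p and −log10 q values deposited by the authors are those of MACS2 at the summit. In every row the deposited score equalled −log10 q times 10, cut to a whole number. The lists hold no depth, and multiply mapping reads can affect repeat regions. How the aligner placed such reads is not given in the sources used here.

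Peaks overlapped when they shared at least 1 bp. Promoters were 2 kb on either side of the TSSs of GENCODE M21 basic, and other locations were those of the summit. Gene families were read from RefSeq descriptions of the nearest protein-coding gene within 10 kb, found for 5138 of 5278 genes. Windows were 100 bp on either side of the summit (304 of 306 peaks have sequence). Besides the motifs in the report, GCATGCGC, TTGCGCAA and TCACNCCAC were searched. Calculations used Python 3.11.15, pandas 2.3.3, numpy 2.4.6, scipy 1.17.1, pysam 0.24.0 and numba, with Clopper-Pearson intervals and no test between genotypes. The code for overlaps, the core search and copy counts was tested on simulated data.

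The named peaks are the 15 strongest in each Qki-5 list, the 5 weakest, the 5 widest, those with Srebp2, the nearest to the threshold, strong peaks without Pol II and those at promoters of listed genes. Pfn2, Socs2, the noncoding neighbours of developmental genes, the Pol II-bound examples, the family members, the snRNA genes and the repeated loci were named after their values were seen. The members and lists were chosen with earlier results of these data known, and the 3 kinds of region, the gene families, the core and the Hoxa interval after seeing the data. Alternatives changed the overlap rule, the peak thresholds, the promoter and the window. Some peaks that these rules name are not reported here.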

Additional observations from a re-analysis of the deposited data

How the results depend on the processing

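The number of persisting peaks was 306 with an overlap of 1 bp, 138 when at least 50% of the WT peak had to be covered and 130 with reciprocal overlap of at least 50%. It was 246 where both lists were limited to 5-fold or more, and 260 to 299 under the other 3 alternatives. The share at promoters was 68.0%, 61.5% with reciprocal overlap, 58.5% with promoters of 1 kb, 56.5% with protein-coding genes only and 62.4% by the summit. Shares with Pol II or Srebp2 and the median GC content stayed within the main interval or spread under each of the other overlap, threshold and window settings tried. Without repeat peaks and those below 3-fold in WT cells, an alternative chosen after seeing the data, the share was 76.8% at promoters, 47.6% with Qk-/- Pol II and 53.2% with WT Pol II. No paired analysis was possible because each antibody and genotype has 1 library. Counting intervals do not cover variation between cultures, peaks of 1 locus are not independent, and the Qk-/- list depends on an unknown depth.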

Other observations

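The 92 Qk-/- Qki-5 peaks that overlapped no WT Qki-5 peak leaned further towards repeat sequence. Repeat windows made up 47 of 92 (51.1%, 95% exact Clopper-Pearson interval 40.4 to 61.7), against 45 of 335 (13.4%, 9.97 to 17.6, with 2 peaks without sequence counted as unmasked) of the Qk-/- peaks that did. The shared core was in 31 of 92 (33.7%, 24.2 to 44.3). A Pol II peak of either genotype overlapped 16 of 92 (17.4%, 10.3 to 26.7), against 133 of 335 (39.7%, 34.4 to 45.2). These 92 peaks were narrow, with a median width of 179 bp against 280 bp. Among the 50 highest-ranked Qk-/- peaks, 47 overlapped a WT peak, 19 were repeat windows and 7 overlapped a Pol II peak.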
